A study of Mus musculus with 19 samples.

Results

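Rosiglitazone was compared with vehicle in the 14 of 19 nerve arrays that carried transcripts of sensory neuron cell bodies, with control and diabetic mice in 1 model. The 14 arrays were those with a log2 intensity of Isl1, a transcription factor of sensory neurons, above 8. Isl1 lay between 9.47 and 11.35 on the arrays used and between 3.83 and 6.41 on the 5 arrays that were left out, so no array lay near the limit. The comparison set 8 arrays with rosiglitazone against 6 with vehicle, and the state of the mouse (control or diabetic) was a second factor in the model.

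All mice were of the inbred strain DBA/2J, and the labelled tissue was sciatic nerve. The design names 5 mice per group with 1 array each, and 1 control vehicle array had been left out by the authors. Control mice given vehicle gave 4 arrays (CV702 to CV705), and control mice given rosiglitazone gave 4 arrays (CR711 to CR714). Mice made diabetic with streptozotocin (STZ), a toxin of insulin-producing beta cells and thus a model of type 1 diabetes, gave 2 arrays with vehicle (DV708 and DV710) and 4 with rosiglitazone (DR717 to DR720). The arrays not used were DV706, DV707, DV709, CR715 and DR716, so 3 of the 5 diabetic vehicle arrays were among them. The age of the mice and the dose and length of treatment were not in the labels.

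Rosiglitazone is a thiazolidinedione, a drug used against insulin resistance that activates the nuclear receptor PPAR gamma. PPAR gamma binds DNA together with the retinoid X receptor at direct repeats of a short hexamer and drives genes of fat storage in adipocytes. The receptor is also present in macrophages and endothelium, where ligands are known to dampen inflammatory genes. Related receptors, PPAR alpha and PPAR delta, drive fatty acid oxidation, and some target genes, such as Pdk4 and Angptl4, respond to several of the 3 receptors.

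Markers were read before the comparison. Mbp, the gene of myelin basic protein, had a log2 intensity between 14.11 and 14.33 on the 14 arrays. Sensory neurons keep their cell bodies in ganglia and not in the nerve trunk, yet their genes were detected on the same arrays, and 1 of them, Isl1, chose the arrays. The level of the 16 tested sensory neuron genes, taken as the mean of members centred over 19 arrays, was between 0.06 and 1.87 on the arrays used and between -3.28 and -2.62 on the others. These genes are therefore given as a description with no test. Of the 16, all 16 had a higher mean with rosiglitazone in control mice and 0 in diabetic mice, with median differences of 0.48 and -0.30. Fat and muscle also varied between mice of 1 group. The level of 16 white adipocyte genes ran from -2.44 in CV702 to 1.26 in CR712, and that of 28 skeletal muscle genes from -1.94 in CR712 to 2.89 in DR720. In such bulk samples, more cells of a type and more RNA per cell cannot be told apart.

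The median intensities of the arrays used lay between 93.3 and 101.7. The log2 difference between the 3' and the 5' control probe sets of Gapdh, which grows as RNA breaks down, was 1.19 ± 0.11 (SD, n = 6) with vehicle and 1.16 ± 0.12 (SD, n = 8) with rosiglitazone. With state held fixed the groups differed by -0.013 (two-sided exact permutation of treatment within state over 1050 splits, p = 0.774, adjusted p = 0.774 over 2 measures). For beta-actin the difference was -0.047 (exact permutation p = 0.722, adjusted p = 0.774). DV708 and CR711 stood apart in beta-actin, at 1.295 and 1.306, while the other 12 arrays lay between 0.474 and 0.86. DV708 is 1 of the 2 diabetic vehicle arrays, and the part of RNA integrity in values that rest on either array was not tested.

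No gene passed the threshold for a rosiglitazone effect. Of 13460 genes tested with limma, 0 (0%) had an adjusted p under 0.05, and the smallest adjusted p was 0.515, shared by 27 genes. At an unadjusted p under 0.05 there were 723 genes (5.37%), of which 349 (2.59%) were higher and 374 (2.78%) lower with rosiglitazone. Over all genes the median log2 difference was 0.01, and 7118 genes (52.9%) were above 0. The median SE of a gene was 0.12, and 33 genes (0.245%) differed by more than 1 on the log2 scale. In 37 genes (0.275%) the 6 vehicle and 8 rosiglitazone arrays did not overlap. When arrays were weighted by their quality (limma array weights), 3 genes passed, namely 4933406C10Rik, Nhlrc3 and Pheta2, each with an adjusted p of 0.0391. None of the other planned settings gave a gene past the threshold.

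**Figure D1:**
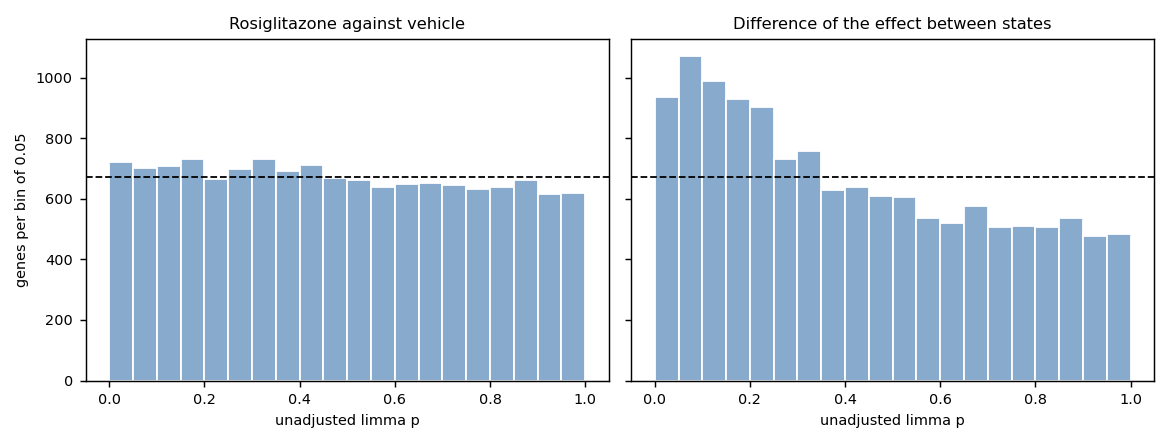
Number of genes (vertical axis) in bins of the unadjusted limma p (horizontal axis) for the rosiglitazone effect over both states (left) and for the difference of that effect between diabetic and control mice (right), 13460 genes each. The dashed line is an even spread over the bins. The first bin holds 723 genes on the left and 938 on the right.

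The 20 genes with the smallest p, 10 in each direction, differed by 0.24 to 0.65 in size on the log2 scale. They were picked by their p, so their values are a description. Mier2, a member of a family of transcriptional repressors, had the smallest p of all (0.000192, adjusted p = 0.515 by limma). It ran from 9.30 to 9.61 with a median of 9.44 in vehicle mice and from 8.57 to 9.27 with a median of 9.03 in rosiglitazone mice, a difference of -0.37 (SE 0.07). The 14 arrays did not overlap for Mier2, and DR720 was the lowest. Nhlrc3, a gene with NHL repeats, ran from 8.34 to 8.75 against 8.14 to 8.44 and differed by -0.32 (SE 0.06). The vehicle array DV708, at 8.34, lay within the rosiglitazone range, and CR713 and DR719 lay above it. Pheta2, whose product binds the lipid phosphatase OCRL, had the largest difference among these genes, -0.65 (SE 0.14), with ranges of 8.61 to 9.47 and 7.89 to 8.77. CR711 was the one rosiglitazone array within the vehicle range.

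Taf5l, a subunit of histone acetylase complexes, differed by -0.32 (SE 0.06) and did not overlap, with vehicle arrays at 9.36 or above and rosiglitazone arrays at 9.23 or below. Rbbp5, a core subunit of histone H3 lysine methyltransferase complexes, differed by -0.42 (SE 0.09), and 1 rosiglitazone array, CR714 at 9.89, reached the vehicle range. Rmnd5a, a subunit of the CTLH ubiquitin ligase, and Desi2, a protease of the deSUMOylating family, differed by -0.24 (SE 0.05) and -0.35 (SE 0.07), each without overlap. Myo1h, a class I myosin, differed by -0.30 (SE 0.06) and Dpyd, the first enzyme of pyrimidine breakdown, by -0.33 (SE 0.07), again without overlap. Prune1, a phosphodiesterase, differed by -0.30 (SE 0.06), but only 1 of its 3 probe sets lay in that direction.

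Among the 10 higher genes, Arl2, a small GTPase of tubulin folding, ran from 11.07 to 11.35 with vehicle and from 11.40 to 11.55 with rosiglitazone, a difference of 0.27 (SE 0.06). Its 14 arrays did not overlap, and both of its probe sets lay in the same direction. Sco1, which delivers copper to cytochrome c oxidase, lay between 8.96 and 9.19 against 9.20 and 9.49, a difference of 0.28 (SE 0.07) without overlap. Gamt, an enzyme of creatine synthesis, differed by 0.30 (SE 0.07). Only 1 vehicle array, CV703 at 9.64, reached into its rosiglitazone range. Dnajc17, a DnaJ cochaperone, and Gpr19, an orphan receptor, were higher by 0.38 (SE 0.08) and 0.37 (SE 0.08) without overlap. Brwd1, a bromodomain protein, differed by 0.32 (SE 0.08), but only 1 of its 5 probe sets lay in that direction. Crybb1, a beta crystallin, differed by 0.40 (SE 0.10), and the unnamed transcripts 4933406C10Rik, 1810062O18Rik and 1700007L15Rik by 0.54 (SE 0.12), 0.57 (SE 0.13) and 0.46 (SE 0.12). Of the 9 among the 20 genes that have several probe sets, 5 had them all in 1 direction. In all, 10 of the 20 genes had groups without overlap, against 0.275% of all genes. A pick by small p on the same arrays favours such groups, so this count is no support.

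The 5 arrays that were left out, 2 with rosiglitazone and 3 with vehicle, gave values that the choice of these genes did not use. The lower genes lay lower there too in 8 of 10 cases, and the higher genes lay higher in 2 of 10, Arl2 by 0.29 and Gamt by 0.37. Over all tested genes 47.4% were higher and 52.6% lower with rosiglitazone on these arrays. Of the 349 genes that were higher at an unadjusted p under 0.05, 171 (49%) were higher there, and of the 374 lower genes 202 (54%) were lower. These shares lie near those of all genes. On these 5 arrays treatment, state, RNA integrity and tissue content are not balanced, so the values carry no test. The Gapdh 3' minus 5' difference was 3.71 in DV706 and 4.38 in DV707, and 1.24 in DV709, 1.23 in CR715 and 1.75 in DR716.

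**Figure D2:**
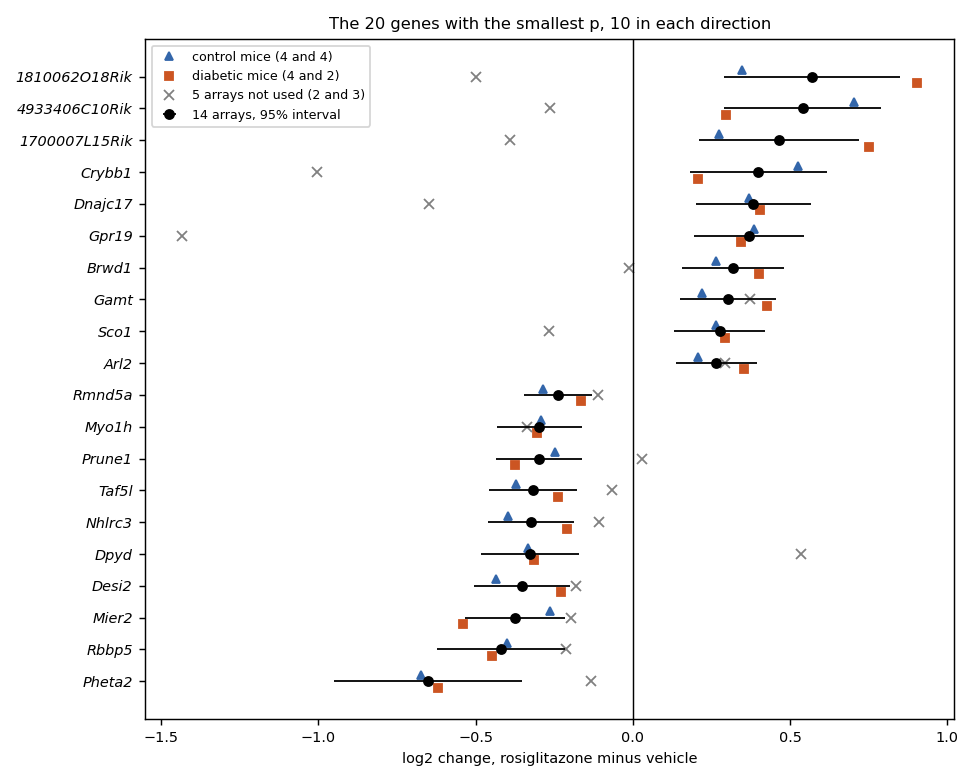
Log2 difference, rosiglitazone minus vehicle (horizontal axis), for the 20 genes with the smallest p (vertical axis). Black points are the estimate over 14 arrays with its 95% interval, blue triangles control mice (4 against 4), orange squares diabetic mice (4 against 2) and grey crosses the 5 arrays not used (2 against 3). Control and diabetic mice lie on the same side for each gene, which the pick by p favours. On the arrays not used 8 of the 10 higher genes lie below 0.

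The targets of PPAR gamma were the first group of interest, and none of its members passed the threshold. Of 40 genes listed, 32 were tested, and 27 of them (84.4%) were higher with rosiglitazone, with a median difference of 0.17, beside 52.9% and 0.01 over all genes. At an unadjusted p under 0.05, 4 of the 32 were higher and 0 lower, beside 2.59% and 2.78% of all genes. In control mice 28 of 32 were higher with a median of 0.25, and in diabetic mice 19 of 32 with a median of 0.06. The median over both states was 0.09 without CV702, 0.27 without DV710 and 0.26 without CR713. With the white adipocyte level as a covariate it was 0.08, and with the skeletal muscle level 0.19. The members belong mostly to fat storage, and 9 of the 32 are also among the 16 white adipocyte markers. The white adipocyte level is the mean of those markers, so as a covariate it adjusts these 9 genes for a level that includes them.

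For a view of where the receptor could bind, the RefSeq promoters of GRCm38.p6, 250 bases before to 50 after each start, were searched on both strands for 2 copies of AGGTCA in a row with 1 free base between them, with up to 2 of the 12 defined letters differing. The repeat is the one that PPAR gamma and its partner are known to bind. It was found in 1268 of 32851 promoters (3.86%) and in 4 of 33 promoters (12.1%) of 24 target genes that were matched by symbol. The 3 genes with a match are Aqp7, whose 2 listed promoters share 1 site, Cd36 and Plin2. Their sequences are shown with 20 bases on each side, along the strand of the gene, with the match in capitals. The repeat lies on the opposite strand, and 2 of its letters differ in each.
Aqp7, chr4:41048160-41048212, minus strand: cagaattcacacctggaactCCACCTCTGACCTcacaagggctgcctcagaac
Cd36, chr5:17835927-17835979, minus strand: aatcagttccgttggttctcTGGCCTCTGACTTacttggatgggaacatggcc
Plin2, chr4:86670252-86670304, minus strand: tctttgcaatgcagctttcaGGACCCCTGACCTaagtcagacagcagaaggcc
The match began at base -56 from the nearer start of Aqp7, at -63 in Cd36 and at -225 in Plin2. Aqp7, the glycerol channel of adipocytes, differed by 1.55 (SE 0.74, adjusted p = 0.914 by limma). Its vehicle mean of 4.92 lay below the log2 limit of 5.54 for testing a gene, and its rosiglitazone mean was 6.40. Below that limit were CV702 (3.05), CV704 (3.68), DV708 (3.52) and CR713 (4.59). The limit applied to the mean over all arrays, so higher rosiglitazone values helped Aqp7 to be tested. Cd36, a fatty acid transporter, differed by 0.15 (SE 0.38) and Plin2, a lipid droplet coat protein, by 0.01 (SE 0.14). A match is a description of the letters only.

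Pdk4, Angptl4, Cd36 and Lpl of the list, and the receptor gene Pparg, showed no difference larger than the spread between mice. Pdk4, the kinase that shuts off pyruvate dehydrogenase, ran from 12.12 to 12.49 with a median of 12.22 in vehicle mice and from 12.10 to 12.51 with a median of 12.20 in rosiglitazone mice. Its difference was -0.05 with a 95% interval of -0.23 to 0.14 (adjusted p = 0.966 by limma). Angptl4, a secreted inhibitor of lipoprotein lipase, ran from 10.53 to 11.65 and from 10.04 to 11.83, with a difference of -0.07 and a wider interval of -0.70 to 0.56. Cd36 lay between 9.47 and 11.61 and between 10.05 and 11.88, with an interval of -0.67 to 0.97. Lpl, the lipase that Angptl4 inhibits, lay between 11.09 and 13.11 with vehicle and between 11.82 and 13.10 with rosiglitazone, with a difference of 0.23 (SE 0.30). Pparg itself had a difference of 0.23 (SE 0.43), 0.66 in control and -0.42 in diabetic mice. The groups overlapped for each of these genes.

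The 5 largest positive differences among genes at an unadjusted p under 0.05, picked after the values were seen, were those of Plin5, Acaa1b, Rbp7, Sucnr1 and Gpd1. Rbp7, an intracellular retinol-binding protein of fat and capillary endothelium, was at 9.56, 11.29, 10.02 and 10.84 in control vehicle mice and at 11.75, 12.22, 10.65 and 11.72 in control rosiglitazone mice. In diabetic mice it was at 10.92 and 11.73 with vehicle and at 12.19, 12.08, 12.69 and 12.87 with rosiglitazone. All 4 diabetic rosiglitazone arrays thus lay above both diabetic vehicle arrays, while CR713 lay within the range of the control vehicle arrays. How many of all genes part in this way within 1 state was not counted. The difference of Rbp7 was 1.15 (SE 0.30, interval 0.50 to 1.80, adjusted p = 0.561 by limma), 1.16 in control and 1.13 in diabetic mice. On the 5 arrays not used it was 1.41, but white adipocyte genes differed there by a median of 3.21. On the arrays used, the Rbp7 difference was 0.87 (SE 0.19) with the white adipocyte level as a covariate. Without CV702, the poorest in white adipocyte genes of the 14 arrays used, it was 0.98 (SE 0.29).

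Plin5, a lipid droplet protein of cells that burn fat, was at 3.94, 6.44, 5.06 and 6.05 in control vehicle mice and at 9.03, 8.70, 6.21 and 7.37 in control rosiglitazone mice. In diabetic mice it was at 6.89 and 6.27 with vehicle and at 6.84, 6.92, 7.04 and 8.35 with rosiglitazone. CR711 and CR712 were the highest arrays used, and these were also the highest of the 14 in white adipocyte genes. CR711, at 9.03, is also the array with the largest beta-actin difference. The difference was 1.75 (SE 0.54, adjusted p = 0.790 by limma), 2.45 in control and 0.70 in diabetic mice, and the 2 were not shown to differ (interaction adjusted p = 0.668). With the white adipocyte level as a covariate it was 1.26 (SE 0.35).

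Gpd1, the glycerol 3-phosphate dehydrogenase that supplies the backbone of triglycerides, was at 10.09, 10.04, 9.99 and 10.39 in control vehicle mice and at 11.41, 11.13, 10.46 and 10.56 in control rosiglitazone mice. The diabetic vehicle arrays gave 10.19 and 10.38 and the diabetic rosiglitazone arrays 10.36, 10.35, 10.91 and 11.36. The control groups did not overlap, and the share of all genes without overlap within 1 state was not counted. The difference of Gpd1 was 0.64 (SE 0.19, adjusted p = 0.746 by limma), and all 4 of its probe sets lay in the same direction. With the adipocyte covariate the difference was 0.53 (SE 0.17). Acaa1b, a peroxisomal thiolase, differed by 1.37 (SE 0.53), and Sucnr1, the succinate receptor, by 0.74 (SE 0.23), with CR712 at 9.42 far above its group. With the adipocyte covariate Acaa1b came to 0.82 (SE 0.23), a smaller value, and Sucnr1 to 0.61 (SE 0.22).

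**Figure D3:**
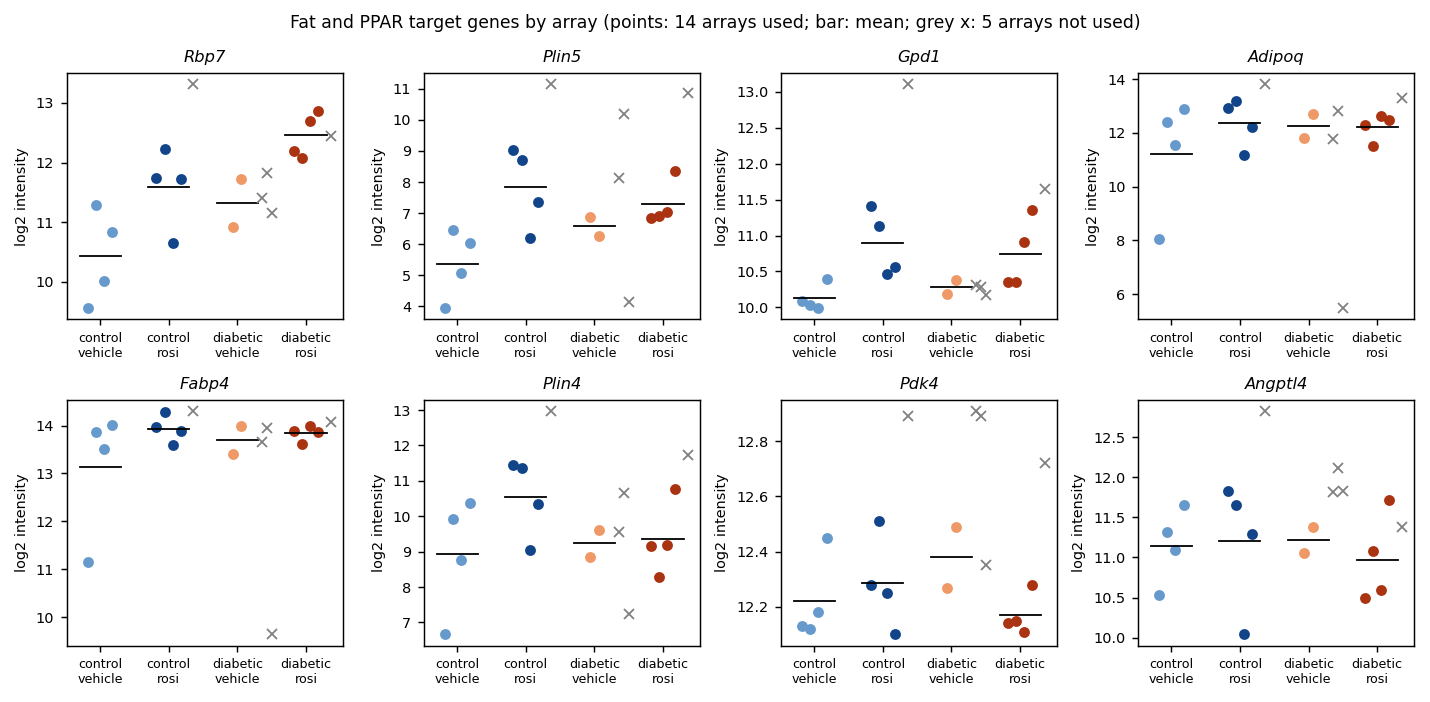
Log2 intensity (vertical axes, which differ between panels and do not start at 0) of 8 fat and PPAR target genes by group (horizontal axis). Points are the 14 arrays used, bars their group means and grey crosses the 5 arrays not used. Rbp7 lies higher with rosiglitazone in both states, Adipoq is low in 1 control vehicle array at 8.04, and Pdk4 overlaps fully between treatments.

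White adipocyte genes were higher on average, but the difference rested on few arrays. All 16 tested members were higher with rosiglitazone, with a median difference of 0.43, and 0 of them passed the threshold. In control mice the median was 0.85 with 16 of 16 higher, and in diabetic mice it was -0.12 with 5 of 16 higher. Without CV702 the median was 0.03 and without CR712 it was 0.27, whereas it was 0.69 without CV705 and 0.70 without DV710. Adipoq, the hormone adiponectin, was at 8.04, 12.40, 11.54 and 12.90 in control vehicle mice and at 12.93, 13.17, 11.16 and 12.20 in control rosiglitazone mice. It lay between 11.50 and 12.69 on all diabetic arrays used. CV702 stood far below the rest. The difference of 0.68 (SE 0.66, adjusted p = 0.944 by limma) came to 0.04 without CV702. Fabp4, the fatty acid carrier of adipocytes, had a difference of 0.53 (SE 0.38), which came to 0.13 without CV702. Lep, the hormone leptin, differed by 1.52 in control and by -1.50 in diabetic mice (interaction adjusted p = 0.670).

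Lipid droplet and lipolysis genes coat, fill and empty the fat stores of a cell, and 11 of the 17 tested members are also in the PPAR gamma list. Of the 17, 16 (94.1%) were higher, with a median of 0.37, 0.49 in control and 0.12 in diabetic mice. Plin4, a perilipin of large adipocyte droplets, ran from 6.66 to 10.36 with a median of 9.23 with vehicle and from 8.27 to 11.46 with a median of 9.77 with rosiglitazone. Its difference of 1.02 (SE 0.63) came to 0.54 without CV702 and to 0.36 (SE 0.24) with the adipocyte covariate. Cidec, which fuses droplets, differed by 1.18 (SE 0.75), and by 0.36 (SE 0.14) with that covariate. Mgll, monoacylglycerol lipase, differed by 0.26 (SE 0.12). With the covariate the median of the list was 0.15. A gene that is itself a white adipocyte marker is adjusted there for a level that includes it, so a value nearer 0 is partly built in. The median of the white adipocyte markers under their own level was -0.05. The part of fat content in the result was not tested.

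Other metabolic lists had small differences of mostly one direction. Of 30 fatty acid oxidation genes tested, 25 (83.3%) were higher, and the median was 0.08, 0.09 in control and 0.04 in diabetic mice. Acads, a short-chain acyl-CoA dehydrogenase, differed by 0.40 (SE 0.14, adjusted p = 0.856 by limma) and Ucp3, a mitochondrial carrier induced by fatty acids, by 0.40 (SE 0.18). Fatty acid and triglyceride synthesis genes were higher in 22 of 25 cases (88%), and the median was 0.13, 0.29 in control and -0.06 in diabetic mice. The median over both states was 0.08 without CR711 and also 0.08 with the adipocyte covariate. Agpat2, an acyltransferase of triglyceride synthesis, differed by 0.44 (SE 0.15), whereas Fads2, the delta-6 desaturase, lay lower, from 11.15 to 11.90 with rosiglitazone against 11.62 to 12.18 with vehicle. The difference of Fads2 was -0.32 (SE 0.08, adjusted p = 0.581 by limma).

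Oxidative phosphorylation subunits were higher in 58 of 67 members (86.6%), but by a median of only 0.05, 0.06 in control and 0.002 in diabetic mice, and without CV705 the median was 0.03. Within the list members lay in both directions. Cox8a, a subunit of cytochrome c oxidase, lay between 12.44 and 12.55 with vehicle and between 12.57 and 12.66 with rosiglitazone, with no overlap and a difference of 0.11 (SE 0.04). Of its 3 probe sets, 2 lay in that direction. Ndufs4, of complex I, differed by 0.16 (SE 0.05). Ndufa9, of the same complex, lay between 12.14 and 12.26 against 11.88 and 12.10, with no overlap and a difference of -0.20 (SE 0.05, adjusted p = 0.581 by limma). Cox8a and Ndufa9 were picked after their values were seen, and 0.275% of all genes had groups without overlap. Proteasome subunits, which form the protein-degrading complex, had a median of 0.03 in 31 members, which came to 0.05 without CR711.

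Cholesterol synthesis and uptake genes lay on different sides of 0 in both states. All 20 tested members were higher with rosiglitazone over both states, with a median of 0.14 and values from 0.03 to 0.30. In control mice 20 of 20 were higher with a median of 0.25, and in diabetic mice 4 of 20 with a median of -0.06. These genes are active in cells that make membranes, and the sensory neuron genes had the same order, 16 of 16 in control and 0 of 16 in diabetic mice. With the sensory neuron level as a covariate the median of the list was 0.09, without CR713 it was 0.08, and the part of neuron content in the result was not tested. Mvk, mevalonate kinase, was higher by 0.21 (SE 0.08, adjusted p = 0.871 by limma), 0.28 in control and 0.11 in diabetic mice. Lss, lanosterol synthase, differed by 0.58 in control and by -0.13 in diabetic mice, and this contrast had an unadjusted interaction p of 0.0417 and an adjusted p of 0.665.

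Myelin genes, the main product of Schwann cells, had small differences. Of 18 tested members, 17 (94.4%) were higher, with a median of 0.06 in both states together and 0.06 in each. It was 0.10 without CV702, 0.09 without DR717 and 0.10 with the adipocyte covariate. Mbp differed by 0.02 with a 95% interval of -0.08 to 0.13. Pmp2, a fatty acid-binding protein of myelin, differed by 0.25 (SE 0.11), and Ncmap, a protein of noncompact myelin, by 0.21 (SE 0.10). Both were lowest on DV708, at 12.58 and 12.32. On the 5 arrays not used all 18 members lay lower with rosiglitazone, and CR715, the array poorest in myelin genes and richest in white adipocyte genes, is 1 of the 2 rosiglitazone arrays there. Genes of repair and immature Schwann cells had a median of 0.02, 0.15 in control and -0.22 in diabetic mice, and leaving out 1 array moved it between -0.03 (without CR712) and 0.08 (without DV708).

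Immune genes lay lower on average on the 14 arrays used. On the 5 arrays not used, which carry no test, they lay the other way. Medians there were 0.83 for mast cell and neutrophil, 0.50 for macrophage, 0.52 for complement and 0.50 for chemokine genes. All 15 tested mast cell and neutrophil genes were lower with rosiglitazone over both states, with a median of -0.63, beside 47.1% of all genes below 0. Of them, 0 passed the threshold. In control mice 1 of 15 was higher, with a median of -0.84, and in diabetic mice 5 of 15, with a median of -0.44. The median over both states ranged from -0.96 without DV708 to -0.42 without DV710. Of these 2 diabetic vehicle arrays, DV710 had the highest level of the list, 2.15, and DV708 had a level of -1.28. The 2 tested red blood cell genes, a sign of blood in the sample, lay lower too, with a median of -0.96, which ran from -1.74 without DV708 to -0.36 without DV710. Of the arrays used, their level was highest in DV710 (2.94), DR717 (1.90) and CV703 (1.71) and lowest in CR712 (-2.70), DV708 (-1.89) and CV704 (-1.875). In the same order, the mast cell and neutrophil genes were at 2.15, 0.79 and 1.58 and at -1.19, -1.28 and -0.99. CV702 was at 0.535 in the red blood cell genes and at -0.212 in the mast cell and neutrophil genes. DR719 was high in the mast cell and neutrophil genes (1.83) and not in the red blood cell genes (-0.76). The part of blood content in the immune lists was not tested. With the adipocyte covariate the mast cell and neutrophil median was -1.01. The mast cell and neutrophil list holds 2 kinds of cell. S100a8 and S100a9, the calprotectin genes of neutrophils, had differences of -2.75 and -2.81 in control mice and of 1.16 and 1.34 in diabetic mice. S100a8 was at 6.13 in DV708 and at 12.77 in DV710, so a group of 2 arrays spanned most of the range. Kit, the stem cell factor receptor of mast cells, differed by -0.63 (SE 0.27), -0.60 in control and -0.69 in diabetic mice. Cpa3, a mast cell protease, differed by -0.60 (SE 0.42), -0.46 in control and -0.81 in diabetic mice.

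Macrophage markers were lower in 16 of 19 cases, and the median was -0.17, -0.28 in control and -0.02 in diabetic mice, and without DV708 it was -0.26. Cd163, a scavenger receptor, differed by -0.33 (SE 0.18), and Adgre1, which encodes the F4/80 antigen, by -0.34 (SE 0.18). Complement genes were lower in 11 of 12 cases (median -0.17), with a median of -0.30 in control mice and of 0.06 in diabetic mice, where 8 of 12 were higher. The median of both states was -0.30 without DV708 and -0.11 without CV705. Chemokines and inflammatory regulators were lower in 20 of 26 cases (median -0.13), with a median of -0.22 in control mice and of 0.02 in diabetic mice, where 14 of 26 were higher. Their median was -0.24 without DV708, -0.19 without CR714 and -0.07 without CV705. Ccl2, the chemokine that draws monocytes, was at 10.89, 10.77, 11.11 and 11.11 in control vehicle mice. In control rosiglitazone mice it was at 9.45, 9.68, 9.51 and 10.28. The control groups thus did not overlap, and the share of all genes that part within 1 state was not counted. In diabetic mice Ccl2 was at 9.50 and 10.53 with vehicle and at 10.47, 10.62, 11.04 and 9.72 with rosiglitazone. Over both states the difference was -0.56 (SE 0.31, adjusted p = 0.930 by limma), -1.24 in control and 0.45 in diabetic mice. Ccl7, its neighbour in function, differed by -1.22 and 0.56. Cxcl1, a neutrophil chemokine, differed by -0.61 (SE 0.31). Hmox1, heme oxygenase, differed by -0.26 (SE 0.52).

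**Figure D4:**
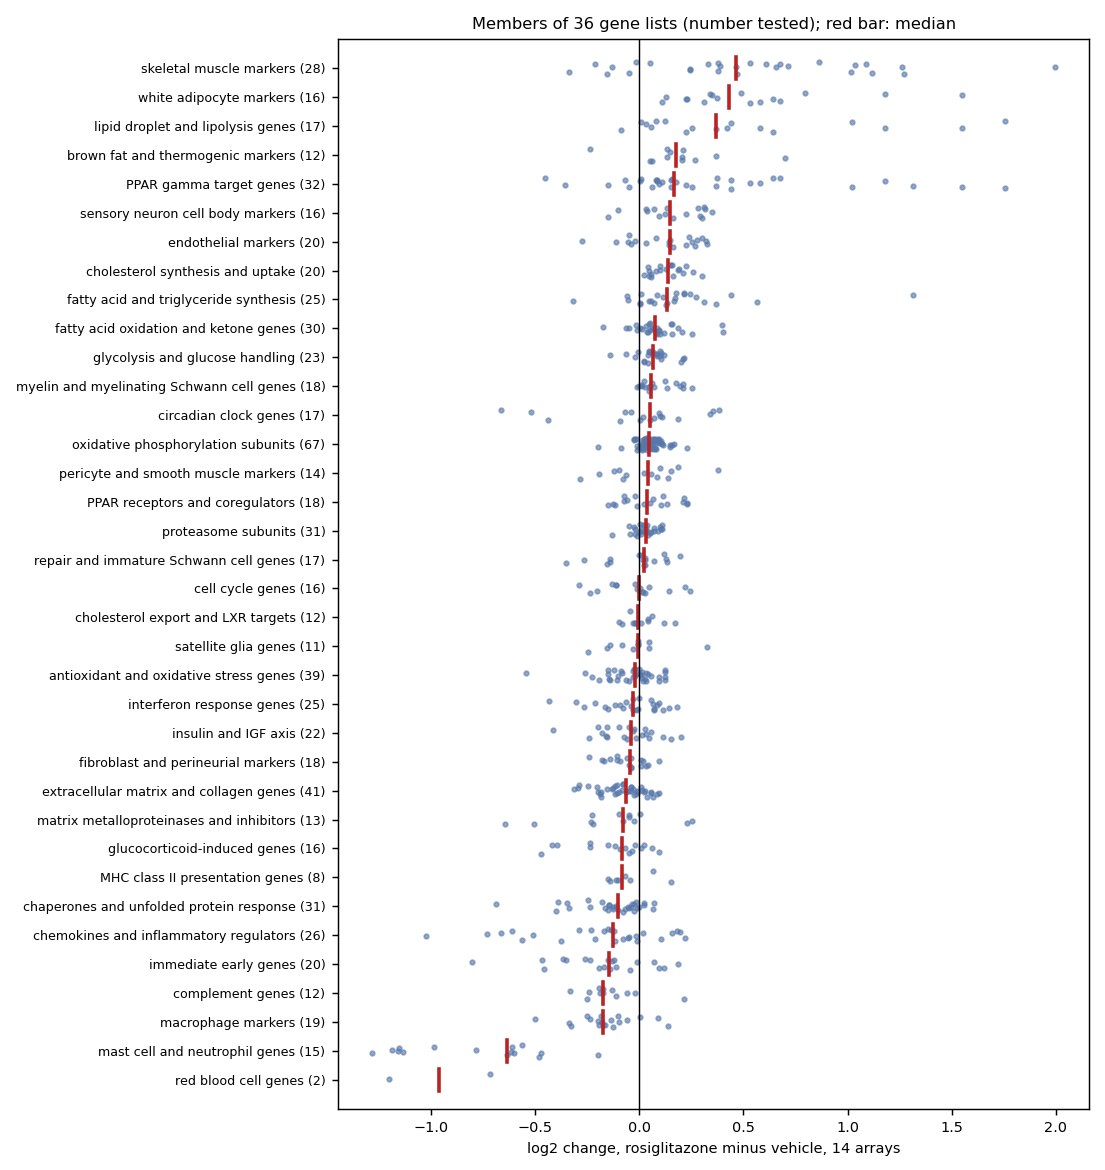
Log2 difference, rosiglitazone minus vehicle over 14 arrays (horizontal axis), of each tested member of 36 gene lists (rows, with the number tested). Grey-blue points are genes and red bars the medians, from 0.47 for skeletal muscle markers to -0.63 for mast cell and neutrophil genes and -0.96 for the 2 red blood cell genes. No point passed the adjusted threshold.

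Structural lists gave small medians. Extracellular matrix genes were lower in 31 of 41 cases, and the median was -0.06, -0.16 in control and 0.12 in diabetic mice. The median over both states ran from -0.10 without DV708 to -0.03 without CR713, and was -0.03 without CV705 and -0.04 without CR711 or CR712. Lum, the collagen-binding proteoglycan lumican, was at 12.49, 12.52, 12.57 and 12.48 in control vehicle mice and at 11.68, 12.02, 12.26 and 11.98 in control rosiglitazone mice, without overlap. In diabetic mice it was at 11.51 and 12.06 with vehicle and at 12.38, 12.41, 12.25 and 12.22 with rosiglitazone, again without overlap and in the other direction. The share of all genes that part in this way within 1 state was not counted. The difference over both states was -0.11 (SE 0.17). Chaperones and genes of the unfolded protein response were lower in 27 of 31 cases, and the median was -0.10, -0.17 in control and 0.04 in diabetic mice. That median rested on CV705, which had a level of 0.61 when members were centred over the 14 arrays, whereas no other array was above 0.27. Without CV705 the median was -0.01, and without CR711 or DR720 it was -0.06. P4hb, a disulfide isomerase, differed by -0.13 (SE 0.05). Immediate early genes, which respond within minutes to stimuli and to dissection, were lower in 16 of 20 cases (median -0.14), with a median of -0.28 without DV708, -0.25 without CV702, -0.10 without CV705 and -0.27 with the adipocyte covariate.

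Skeletal muscle genes had the highest median of the lists, 0.47 in 28 members, with 22 higher and 0 at an unadjusted p under 0.05. The median was 0.06 without DV710 and 0.92 without DV708. It was 0.07 without DR720, 0.26 without CR711, 0.30 without CV702, 0.31 without CV703 and 0.72 without CR712. Acta1, skeletal muscle actin, ran from 4.78 to 11.53 with vehicle and from 6.32 to 13.27 with rosiglitazone, a difference of 1.26 (SE 1.20). The highest array was DR720 and the lowest DV710.

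**Figure D5:**
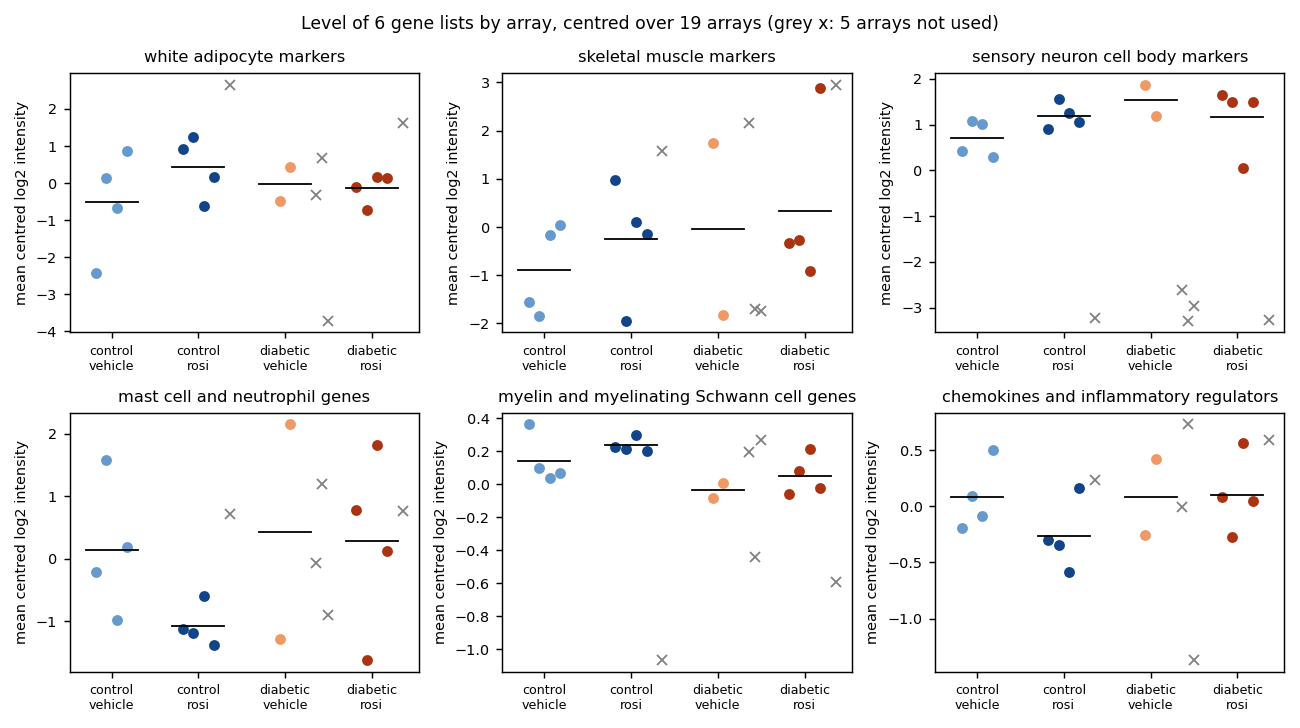
Level of 6 gene lists (vertical axes, mean of members centred over 19 arrays, log2 scale) by group (horizontal axis). Points are the 14 arrays used, bars their group means and grey crosses the 5 arrays not used. White adipocyte genes are lowest in CV702 at -2.44 among the arrays used, mast cell and neutrophil genes lie between -1.38 and -0.60 in control rosiglitazone mice, and sensory neuron genes separate the arrays used from the rest by choice.

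The 5 largest negative differences at an unadjusted p under 0.05, also picked after their values were seen, had wide errors. Lrrn4cl, a leucine-rich repeat protein, differed by -1.14 (SE 0.52), with rosiglitazone arrays between 6.89 and 8.86 and vehicle arrays between 6.80 and 10.41. Clec4d, a lectin receptor of myeloid cells, differed by -1.03 (SE 0.44), Cass4, a scaffold protein, by -0.85 (SE 0.31), Pmaip1, the apoptosis gene Noxa, by -0.78 (SE 0.35), and Prox1, a transcription factor of lymphatic endothelium, by -0.77 (SE 0.31). Their groups overlapped, and DV710 was the highest array in Lrrn4cl, Clec4d, Cass4, Pmaip1 and Prox1. Without DV710 Lrrn4cl came to -0.79 and Clec4d to -0.71. On the 5 arrays not used, which carry no test, Clec4d was lower too, by -1.15. The others lay the other way there, Lrrn4cl at 0.84, Cass4 at 0.84, Pmaip1 at 1.47 and Prox1 at 1.85.

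Whether the effect differed between states was tested as an interaction. Of 13460 genes, 0 (0%) had an adjusted interaction p under 0.05, 938 (6.97%) had an unadjusted p under 0.05, and the smallest adjusted p was 0.665. Among named genes the smallest unadjusted interaction p were those of Lum (0.000274, difference of the effects 1.06, SE 0.21), Ccl7 (0.000448, 1.78, SE 0.37) and Ccl2 (0.00287, 1.69, SE 0.46), each with an adjusted p of 0.665. The diabetic effect rests on 2 vehicle arrays. Without DV710, 13 genes passed the interaction threshold, with 2661 at an unadjusted p under 0.05, and without DV708 none passed and 204 were at an unadjusted p under 0.05. Either fit has 1 diabetic vehicle array, DV708 in the first and DV710 in the second, which is assumed to vary like the arrays of the other groups, so the 13 genes rest on DV708 alone for that group. Across all genes 54.5% were higher with rosiglitazone in control mice and 46.9% in diabetic mice.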

How the data were processed

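Total RNA was extracted, amplified, biotin-labelled and hybridised to Affymetrix arrays, per the labels' protocols. The deposited values are intensities per probe set on a linear scale, from 3.76 to 30602, and the submitters' processing notes name RMA, with no version. The step back to the linear scale and the software are not given in the sources used here, and scanner files were not used. Log2 was taken with no offset. Of 45101 probe sets 64 are controls, 34945 have 1 gene symbol in the platform annotation, 932 several and 9160 none listed. For each of 18193 genes the probe set of highest mean over 19 arrays was taken, and the 13460 genes with a mean above the 40th percentile (log2 5.54) were tested.

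Groups came from the sample titles. The model had treatment and state as additive factors on 14 arrays (limma 3.58.1 in R 4.3.3, eBayes, Benjamini-Hochberg at 0.05), and the interaction came from a fit of 4 group means. The code was tested on simulated data. With 1 array per mouse, p-values rest on the spread between mice. A level of a list is the mean of its tested members after centring, and lists carry no test. The rule named genes past the threshold, or otherwise the 10 with the smallest p in each direction, and 12 genes in every case, of which 1 is not reported here. Other genes were chosen after their values were seen. The comparison, the members and the 36 lists were chosen with earlier results of these data known. Alternatives covered the model, the arrays, covariates, normalization, offset, filters, probe sets and each array left out. The number of arrays limits the precision.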

Additional observations from a re-analysis of the deposited data

Results flagged for a closer look

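In 15 of 210 checks of 1 gene in 1 group of 4 arrays, 1 array stood apart from the other 3, by a gap that was large against the range of the group. Chance gives about 5% of such groups. In diabetic rosiglitazone mice DR720 was high in Dnajc17 (10.15), 1810062O18Rik (7.85) and Plin5 (8.35), DR719 was high in Nhlrc3 (8.35) and Myo1h (11.80), and DR718 was low in Pparg (6.88) and Lss (8.92). In control rosiglitazone mice CR713 was high in Gpr19 (9.64) and Pmp2 (13.66) and low in Plin2 (11.13), CR712 was high in Sucnr1 (9.42), and CR711 was low in Hmox1 (9.26). In control vehicle mice CV703 was high in Mier2 (9.61) and low in P4hb (13.30), and CV705 was high in Dpyd (8.87).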

How the results depend on the processing

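No gene passed the adjusted threshold under any setting but array weights, which gave 3 genes, 4933406C10Rik, Nhlrc3 and Pheta2, and 2163 genes at an unadjusted p under 0.05 (1103 higher, 1060 lower). Control mice alone gave 1738 such genes (980 higher, 758 lower) and diabetic mice alone 336 (163 higher, 173 lower). With 1 array left out in turn the adjusted count stayed at 0, and the unadjusted count ran from 472 (without CV705) to 1731 (without DV708), 211 to 858 higher and 261 to 873 lower. The interaction gave 0 to 13 genes past the adjusted threshold (13 without DV710, where DV708 is the only diabetic vehicle array) and 204 to 2661 at an unadjusted p under 0.05. The cause of these shifts was not tested. The cost of few arrays is wide intervals, above all for diabetic mice with 2 vehicle arrays.

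Some differences turned their sign. On all 19 arrays Gpr19 came to -0.00083, Lum to 0.056, Mbp to -0.079 and Pmp2 to -0.0048. On all 19 arrays with the sensory neuron level as covariate Gpr19 came to -0.10, Crybb1 to -0.0032, Lum to 0.019, Mbp to -0.091, Pmp2 to -0.055 and Ncmap to -0.081. In control mice alone Pdk4 was at 0.063 and Angptl4 at 0.053. In diabetic mice alone Adipoq was at -0.028, Pparg at -0.42, Lum at 0.53, Ccl2 at 0.45, Hmox1 at 0.014, Mbp at -0.031, Lss at -0.13, Ccl7 at 0.56, S100a8 at 1.16, S100a9 at 1.34, Lep at -1.50 and Lpl at -0.13. With array weights Cd36 was at -0.0039 and Plin2 at -0.028. With the white adipocyte level as covariate Cd36 was at -0.17, Adipoq at -0.039, Pparg at -0.23, Lep at -0.75, Plin2 at -0.094 and Lpl at -0.10. For white adipocyte markers that level includes the gene itself. With the skeletal muscle level as covariate Hmox1 was at 0.059 and Plin2 at -0.0064. Without state Lep was at -0.11. With the mean of all probe sets Brwd1 was at -0.025 and Prune1 at 0.099. With 1 array left out the ranges that crossed 0 were -0.099 to 0.016 for Pdk4, -0.19 to 0.14 for Angptl4, -0.15 to 0.40 for Cd36, -0.045 to 0.43 for Pparg, -0.59 to 0.015 for Hmox1, -0.46 to 1.03 for Lep, -0.0011 to 0.38 for Lpl and -0.041 to 0.12 for Plin2. For the Gapdh 3' minus 5' difference the range was -0.038 to 0.0093, and for beta-actin -0.145 to 0.110.

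Medians of lists also moved. On all 19 arrays, first without and then with the sensory neuron covariate, they were 0.16 and 0.21 for fatty acid oxidation, 0.11 and 0.11 for oxidative phosphorylation, 0.068 and 0.082 for cholesterol export, -0.12 and -0.17 for myelin and 0.083 and 0.082 for proteasome genes, and 0.060 with the covariate for complement genes. In control mice alone fibroblast markers were at -0.17. In diabetic mice alone the medians were -0.12 for brown fat, 0.0022 for oxidative phosphorylation, -0.058 for cholesterol synthesis, 0.069 for cholesterol export, -0.22 for repair Schwann cell, 0.081 for fibroblast, 0.12 for extracellular matrix, 0.060 for complement and 0.080 for proteasome genes. At the other settings, medians of lists moved by less than the spread between mice, but some turned their sign. On all 19 arrays with the sensory neuron covariate, macrophage markers came to 0.047 and immediate early genes to 0.082. Matrix metalloproteinases came to 0.050, MHC class II genes to 0.029, antioxidant genes to 0.042 and interferon genes to 0.031. Repair Schwann cell genes came to -0.083 and fibroblast markers to 0.0055. At that setting PPAR gamma targets rose to 0.57 and white adipocyte markers to 1.13. The red blood cell list had no member above the 60th percentile, so it has no value there. The interaction was not refitted for models without state or within 1 state. No paired analysis was possible because the groups share no replicate numbers.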
